A study of Mus musculus with 11 samples.

Results

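AA465934, Wdfy1, Fndc5, Tlr12, Acsm3 and Ces1g are 6 of 13734 measured genes, selected on their values because 2 of the 11 libraries of this series, S184 and S185, differed from the rest in them. In S184 and S185, AA465934, Wdfy1 and Fndc5 were lower, and Tlr12, Acsm3 and Ces1g higher, than in every one of the other 9 libraries. The libraries hold RNA of isolated mouse kidney glomeruli. S184 and S185 came from db/m mice, heterozygous for the db mutation of the leptin receptor gene, that received vehicle (5% DMSO by gavage). The other 9 came from db/db mice, homozygous for db and used to model type 2 diabetic kidney disease, given puerarin (20 mg per kg per day in 5% DMSO, n = 3; libraries S144, 2 and 3), from db/db mice given vehicle (n = 4; S152, S153, 1 and 3), and from further db/m mice given vehicle (n = 2; 2 and 3). All treatments began at 10 weeks of age and ran for 6 weeks in animals described as male. The study tested puerarin, an isoflavone glycoside of kudzu root, in diabetic kidney disease. Library titles take 2 forms, an S number (S144, S152, S153, S184, S185) and a group tag with a number (the other 6 libraries), and S184 and S185 are the db/m libraries with S numbers. The labels give both BKS and C57BL/6J as strain, describe db/m controls as littermates, do not say which of 2 named sequencing sites handled which library, and do not say whether a library is 1 animal or a pool.

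Wdfy1 and Tlr12 belong to innate sensing. Toll-like receptors recognise microbial molecules, mouse TLR12 takes part in recognising profilin of the parasite Toxoplasma, and WDFY1 is known to bring the adaptor TRIF to TLR3 and TLR4. Acsm3 and Ces1g encode enzymes of lipid handling: ACSM3 is a mitochondrial acyl-CoA synthetase for medium-chain fatty acids, the step that readies them for oxidation, and CES1G is a carboxylesterase that hydrolyses lipid esters, best known in liver. FNDC5 is a transmembrane protein with a fibronectin type III domain whose shed part is called irisin. AA465934 is a non-coding RNA to which no role is given here. Genes of this kind can differ between inbred mouse strains through inherited sequence differences, which is why strain background was raised in their selection; the labels give no genotype of a library beyond db/db or db/m.

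The genes lie at 6 places on 5 chromosomes (mm10). AA465934 (NR_028363, plus strand) is at chr11:83291699-83294637, Wdfy1 (minus strand) at chr1:79702262-79761769, Fndc5 (NM_027402, plus strand) at chr4:129136999-129144593, Tlr12 (NM_205823, minus strand) at chr4:128615446-128618619, Acsm3 (plus strand) at chr7:119760923-119784896 and Ces1g (NM_021456, minus strand) at chr8:93302369-93337209. Tlr12 and Fndc5 are thus on the same chromosome, yet one was high and the other low in S184 and S185. Promoters of 5 of the 6 genes were matched by symbol in RefSeq (GRCm38.p6), each as 250 bases before to 50 bases after the gene start, on the gene's strand. Shown are the gene with the widest drop, the pair on chromosome 4 that moved in opposite directions, and a lipid gene; capitals mark a GC box (GGGCGG or its reverse complement) or a TATA box (TATAAA or its reverse complement).
AA465934: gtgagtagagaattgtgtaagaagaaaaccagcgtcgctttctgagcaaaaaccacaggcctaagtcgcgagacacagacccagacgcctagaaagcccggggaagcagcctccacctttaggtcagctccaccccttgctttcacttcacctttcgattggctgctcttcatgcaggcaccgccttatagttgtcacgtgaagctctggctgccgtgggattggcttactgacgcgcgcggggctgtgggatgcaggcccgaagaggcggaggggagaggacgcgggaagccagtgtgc
Fndc5: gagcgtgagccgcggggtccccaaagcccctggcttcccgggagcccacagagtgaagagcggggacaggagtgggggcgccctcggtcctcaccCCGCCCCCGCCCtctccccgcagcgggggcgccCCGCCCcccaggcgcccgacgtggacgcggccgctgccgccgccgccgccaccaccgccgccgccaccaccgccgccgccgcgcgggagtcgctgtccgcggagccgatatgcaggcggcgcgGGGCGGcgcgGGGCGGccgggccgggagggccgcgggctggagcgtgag
Tlr12: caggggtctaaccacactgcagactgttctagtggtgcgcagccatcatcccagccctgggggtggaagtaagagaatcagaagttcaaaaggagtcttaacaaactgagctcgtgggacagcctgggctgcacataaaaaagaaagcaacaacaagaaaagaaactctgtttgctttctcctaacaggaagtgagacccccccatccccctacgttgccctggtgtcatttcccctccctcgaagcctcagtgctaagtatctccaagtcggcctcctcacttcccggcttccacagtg
Ces1g: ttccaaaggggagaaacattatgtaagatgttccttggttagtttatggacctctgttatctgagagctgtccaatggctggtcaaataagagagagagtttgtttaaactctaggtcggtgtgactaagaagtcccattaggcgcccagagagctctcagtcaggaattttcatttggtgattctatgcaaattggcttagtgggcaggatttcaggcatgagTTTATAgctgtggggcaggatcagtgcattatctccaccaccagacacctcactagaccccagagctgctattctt

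The promoters had no motif in common among those searched. Fndc5 had 5 GC boxes, a motif held by 35.7% of 32851 RefSeq promoters of this length, and 48 CG pairs with 82.3% G and C. Ces1g had 1 TATA box, on the minus strand of its promoter (13.6% of promoters hold one), and 2 CG pairs. AA465934 had 18 CG pairs, Tlr12 6 and Acsm3 7, and these windows held neither motif; the median over all promoters was 7. The cAMP response element (TGACGTCA), present in 1.79% of promoters, was in none of the 5 windows. Motifs were searched on both strands, and no match says only that these letters are not in the window.

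Libraries held between 35369703 and 44244460 counts over 22320 transcripts, and values are CPM (counts scaled to a common library size) after TMM scaling, summed over the transcripts of a gene. Markers of podocytes were abundant in all 11 libraries (Synpo, the actin-binding synaptopodin, at 1202 to 1859 CPM), as were endothelial and mesangial ones. RNA of tubules was also present: the 20 proximal tubule markers summed to 7858 CPM in S184 and 3360 CPM in S185, against 1194 to 5024 CPM in the other 9. Xist, the RNA that coats the inactive X in females, was at 528.5 and 819 CPM in db/db puerarin 2 and 3, against at most 6.47 CPM in the other 9 libraries of the series, and the Y-linked Ddx3y was at 3.06 and 0.909 CPM there, against 50.3 to 85.2 CPM elsewhere. These 2 puerarin libraries therefore go against the male label, and differences that rest on them are also given without them. S184 and S185 had Xist at 0.711 and 0.678 CPM and Ddx3y at 65.5 and 77.2 CPM and match the male label. In bulk RNA, fewer cells of a type and less RNA per cell cannot be told apart.

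AA465934 showed the widest drop. It stood at 0.508 CPM in S184 and 0.633 CPM in S185 (20 and 28 counts), against 16.7, 26.4 and 23.1 CPM in db/db puerarin S144, 2 and 3, 16.7, 20.6, 15.6 and 21.7 CPM in db/db vehicle S152, S153, 1 and 3, and 21.1 and 20.9 CPM in db/m vehicle 2 and 3. The RNA was close to undetected in S184 and S185, while the other 9 libraries lay within a narrow band whatever their genotype or treatment. The mean of S184 and S185 was 35.6-fold lower than that of the other 9 (0.57 against 20.3 CPM), and on the scale of log2(CPM + 0.5) the difference was -4.26, where the other 9 had an SD of 0.24. These values chose the gene and are a description with no test, as are the differences between S184 and S185 and other libraries given for the other 5 genes. The single transcript is 389 bases long.

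Wdfy1, the TRIF-recruiting protein, was at 14.3 and 14.2 CPM in S184 and S185. The other libraries had 50.2, 47.9 and 44.04 CPM (db/db puerarin S144, 2 and 3), 47.5, 52.9, 43.7 and 47.2 CPM (db/db vehicle S152, S153, 1 and 3) and 44.5 and 40.7 CPM (db/m vehicle 2 and 3). S184 and S185 were almost equal and far below the lowest of the other 9, which had the smallest spread of the 6 genes, a coefficient of variation of 7.95%. The mean was 3.27-fold lower in S184 and S185, a log2 difference of -1.67 (SD of the other 9, 0.11). Both transcripts were lower: NM_001111279 averaged 13.6 CPM in S184 and S185 against 43.6 CPM in the other 9, and the shorter NM_027057 averaged 0.625 against 2.95 CPM.

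Fndc5, the irisin precursor, was at 17.1 and 18.4 CPM in S184 and S185. It was at 78.2, 60.1 and 54.1 CPM in db/db puerarin S144, 2 and 3, at 74.1, 65.5, 63.3 and 52.5 CPM in db/db vehicle S152, S153, 1 and 3, and at 91.6 and 71.5 CPM in db/m vehicle 2 and 3. The lowest of the other 9, db/db vehicle 3, was still well above S184 and S185, and the highest was db/m vehicle 2, of the same genotype and treatment as S184 and S185. The mean was 3.82-fold lower in S184 and S185, a log2 difference of -1.88 (SD of the other 9, 0.26). Within db/m vehicle the difference from libraries 2 and 3 was -2.16 on that scale.

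Tlr12, the profilin receptor, went the other way. It had 7.82 and 4.70 CPM in S184 and S185 (308 and 208 counts). Counts in the other libraries were 6, 0 and 0 in db/db puerarin S144, 2 and 3, 0, 3, 19 and 17 in db/db vehicle S152, S153, 1 and 3, and 5 and 13 in db/m vehicle 2 and 3, so the highest of them, db/db vehicle 1, reached 0.472 CPM. A count of 0 allows a level of up to 3 counts in that library (0.085 CPM in puerarin 2, 0.0779 CPM in puerarin 3 and 0.0766 CPM in db/db vehicle S152), and this limit covers counting error only. The gene was thus near the detection limit in 9 libraries and clearly present in S184 and S185, where its mean was 35.3-fold higher (6.26 against 0.177 CPM). The log2 difference was 3.33 (SD of the other 9, 0.39), and it depends on the 0.5 CPM added before the log.

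Acsm3 was at 49.4 CPM in S184 and 26.1 CPM in S185. The other libraries had 5.01, 3.31 and 3.53 CPM (db/db puerarin S144, 2 and 3), 5.26, 5.73, 3.08 and 8.18 CPM (db/db vehicle S152, S153, 1 and 3) and 5.43 and 5.82 CPM (db/m vehicle 2 and 3). S184 was 1.89-fold above S185, and both were above the highest of the other 9, db/db vehicle 3. The mean was 7.49-fold higher in S184 and S185, a log2 difference of 2.77 (SD of the other 9, 0.41). The 3 listed transcripts of Acsm3 are nearly the same, so their sum counts shared reads more than once; NM_016870 alone had 16.2 and 8.61 CPM in S184 and S185, against an average of 1.62 CPM in the other 9. Acsm3 overlaps Eri2, an exonuclease gene on the opposite strand, which was at 3.61 and 4.18 CPM in S184 and S185 and at 3.63 to 5.63 CPM in the other 9. The sources used here do not give whether strand was used in counting.

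Ces1g was at 6.91 and 4.02 CPM in S184 and S185. It was at 0.896, 0.793 and 0.727 CPM in db/db puerarin S144, 2 and 3, at 1.07, 0.467, 0.646 and 1.06 CPM in db/db vehicle S152, S153, 1 and 3, and at 1.06 and 0.97 CPM in db/m vehicle 2 and 3. As for Acsm3, S184 was the higher of the pair, by 1.72-fold, and no other library came near either. The mean was 6.39-fold higher in S184 and S185, a log2 difference of 2.11 (SD of the other 9, 0.24). Ces1g has near relatives in a cluster of carboxylesterase genes, so reads shared with them make its level uncertain.

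**Figure D1:**
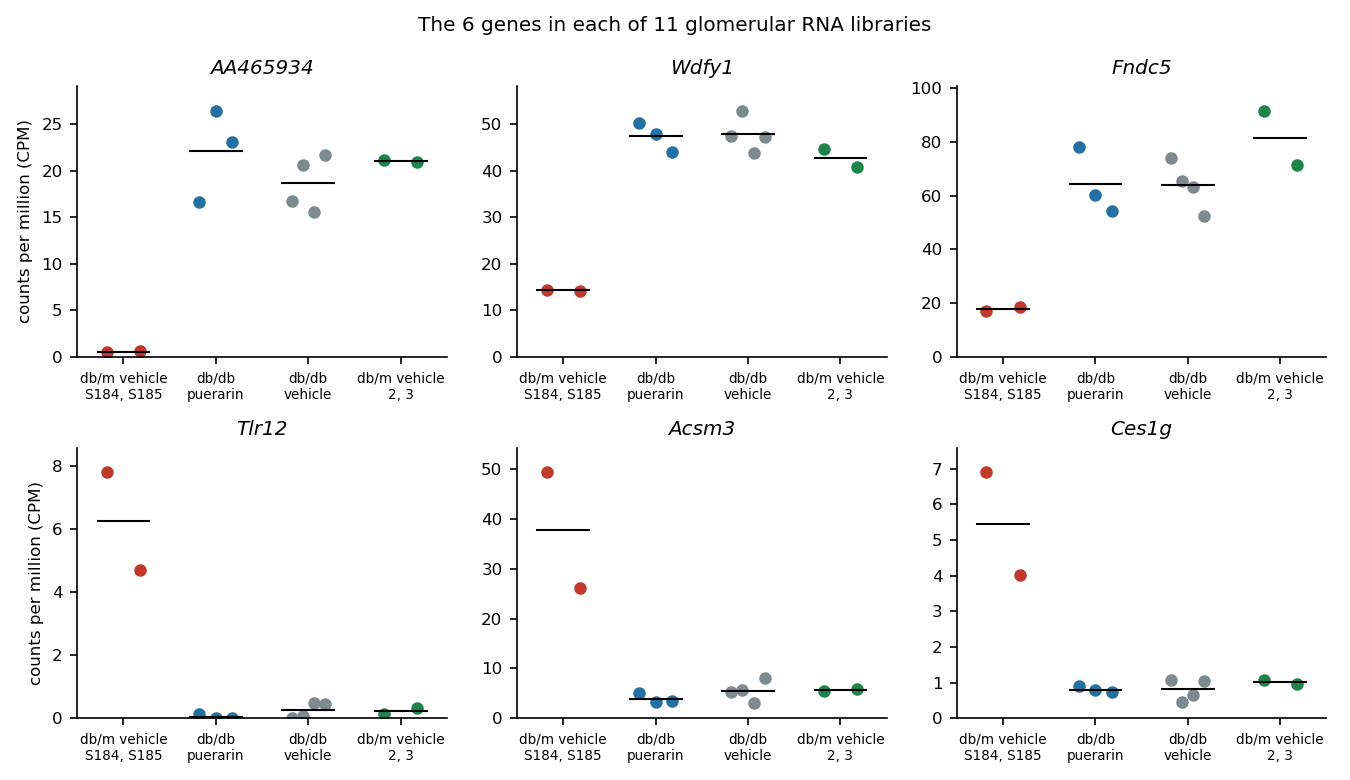
CPM (vertical axes, from 0) of each of the 6 genes in every library, with S184 and S185 leftmost and the other libraries by group; points are libraries and lines are means. The 9 libraries of the other columns form 1 band for each gene, and S184 and S185 lie outside it in all 6 panels.

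Read per kilobase of transcript, so that genes can be compared, the order of the levels differed between the 2 sets of libraries. In S184 and S185 the highest was Fndc5 at a mean of 6.43 CPM per kb, followed by the 3 Acsm3 transcripts at 4.49 to 4.90, the long Wdfy1 transcript at 2.99, Ces1g at 2.39, Tlr12 at 1.97 and AA465934 at 1.47 CPM per kb. In the other 9 libraries the order was AA465934 (52.2 CPM per kb), Fndc5 (24.6), Wdfy1 (9.57), Acsm3 (0.587 to 0.676), Ces1g (0.373) and Tlr12 (0.0559). AA465934 was thus first in one set and last in the other. The levels of the 6 genes spanned a much smaller range in S184 and S185 than in the other libraries. Since the genes were chosen on these differences, the order and the range are partly set by the selection, and nothing is read from them.

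Such separation was uncommon among all genes but not limited to these. S184 and S185 were both above all other 9 libraries for 557 of 13734 genes (4.06%) and both below for 391 (2.85%), 6.9% in all. A gap of at least 2-fold between S184 and S185 and the nearest other library, taken on log2(CPM + 0.5) and so narrower for low genes than the ratio of their CPM, was found for 4 genes above (0.0291%) and 6 below (0.0437%), and all 6 selected genes are among these 10, as the selection fixes. The selected genes had log2 gaps of 1.47 (Wdfy1) to 3.83 (AA465934). The remaining 4 genes past the 2-fold gap were not selected. Zbtb16, a zinc-finger transcription factor, was at 6.70 and 7.64 CPM in S184 and S185 against 27.9 to 89.8 CPM in the other 9, and Fkbp5, a co-chaperone of steroid receptors, was at 33.4 and 39.8 CPM against 96.7 to 235.2 CPM. Both are well known as genes induced by glucocorticoids. Grik3, a kainate-type glutamate receptor subunit, had 0.229 and 0.158 CPM against 1.19 to 3.06 CPM. Slco1a1, an organic anion transporter of the proximal tubule, had 22.8 and 13.1 CPM against 0.571 to 4.21 CPM. Just under the 2-fold gap on that scale were Mep1b, a subunit of the brush-border protease meprin, at 6.60 and 4.65 CPM against 1.08 to 2.18 CPM, Akr1c14, a hydroxysteroid dehydrogenase, at 15.2 and 9.20 CPM against 2.38 to 4.62 CPM, and on the low side Nlrp1b, an inflammasome sensor, at 0.584 and 0.452 CPM against 1.33 to 2.56 CPM.

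**Figure D2:**
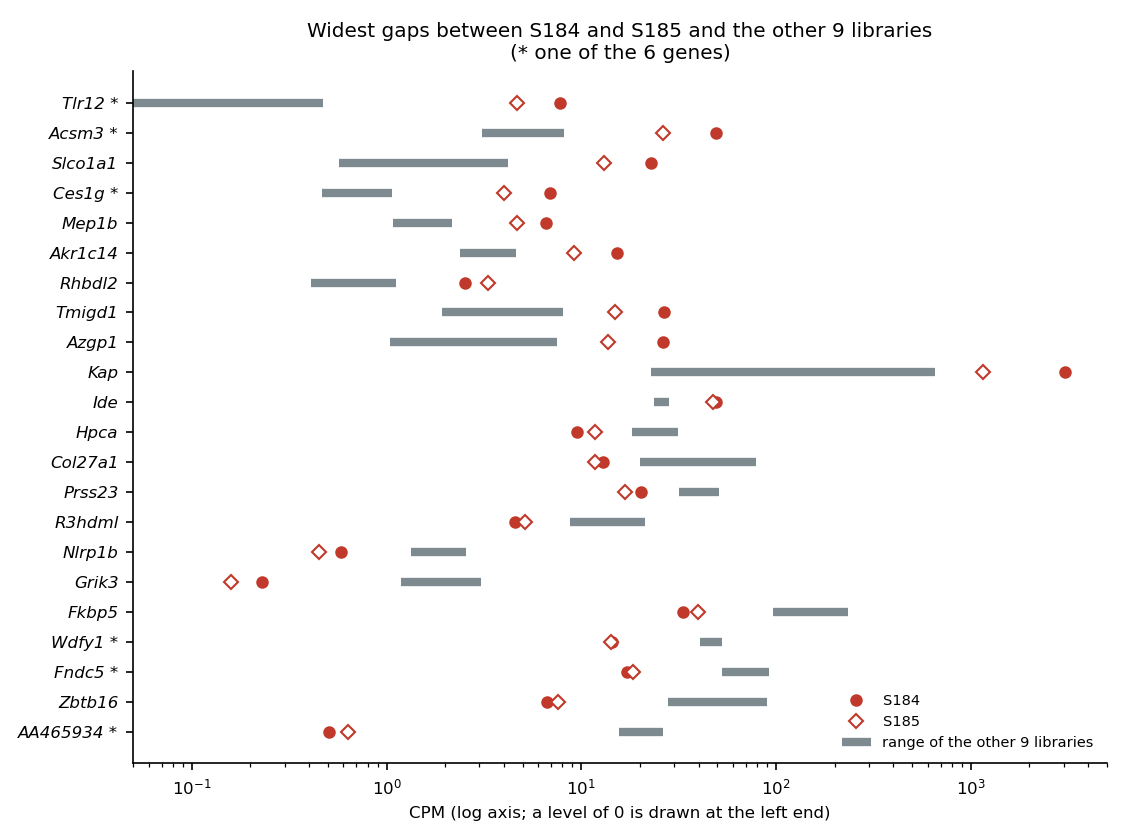
CPM on a log axis of the 6 selected genes (starred) and the 16 other genes with the widest gaps, 8 on each side; filled circles are S184, open diamonds S185, and bars the range of the other 9 libraries. Tlr12 has the widest gap on the high side and AA465934 on the low side, and Kap, Ide and Hpca lie nearer to the bars.

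The 6 genes were then compared across the study's conditions in the other 9 libraries, without S184 and S185 (edgeR quasi-likelihood test over all genes, with group and title form as terms). The selection also used these 9 libraries, since a wide gap favours genes with a narrow band among them, so a count of 0 calls is partly set by it and says little about the genes. Puerarin against vehicle in db/db mice called 0 of 6 selected genes and 0 of 13734 genes (0%). Wdfy1 averaged 47.4 ± 3.13 CPM with puerarin and 47.8 ± 3.76 CPM with vehicle (SD, n = 3 and n = 4), a log2 fold change of 0.01 with a 95% interval from -0.20 to 0.22. For AA465934 the log2 fold change was 0.19 (-0.21 to 0.58), for Fndc5 0.05 (-0.23 to 0.34), for Acsm3 -0.47 (-1.18 to 0.23) and for Ces1g -0.00442 (-0.78 to 0.77). The fitted value of Tlr12 was -2.15 (-5.11 to 0.80) and rests on 6 counts in the puerarin libraries. At an unadjusted p under 0.05 the comparison had 689 genes, none of them selected genes, and DESeq2 called 31 genes. Without db/db vehicle 1, edgeR called 588 genes, again with 0 of the 6. Without puerarin 2 and 3, 1 puerarin library is left, and its spread is taken to be that of the other libraries; the log2 fold change was then -0.16 for AA465934, 1.76 for Tlr12 and 0.22 for Ces1g, all turned in sign, with 0 genes called.

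The db/db vehicle libraries against db/m vehicle libraries 2 and 3 also gave 0 calls among the 6 genes and 0 among 13734 (0%), with 1225 genes at an unadjusted p under 0.05 and 210 by DESeq2. Fndc5 came nearest. It averaged 63.8 ± 8.88 CPM in db/db vehicle and 81.5 ± 14.2 CPM in db/m vehicle 2 and 3 (SD, n = 4 and n = 2), a log2 fold change of -0.53 (SE 0.15; 95% interval -0.88 to -0.19; edgeR adjusted p = 0.428). Its ranges overlapped, db/db vehicle S152 lying above db/m vehicle 3. Without db/db vehicle 1 the value was -0.68 (edgeR adjusted p = 0.0279) in a fit that called 1379 genes, so this library decides the call. AA465934 (-0.06), Wdfy1 (0.10), Acsm3 (-0.11), Ces1g (-0.33) and Tlr12 (0.62) had intervals that included 0.

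Title form splits the libraries, and the labels do not say whether this split is technical. In the 9 libraries it could be tested within db/db puerarin and db/db vehicle only, since db/m vehicle 2 and 3 are both group-tag libraries. In db/db puerarin the group-tag libraries are also the 2 that go against the male label. Group-tag against S-number libraries differed in 341 of 13734 genes (2.48%), of which 0 were selected genes, and DESeq2 called 1403. Without puerarin 2 and 3, edgeR called 0. The log2 difference was 0.22 for AA465934 (95% interval -0.18 to 0.62), -0.14 for Wdfy1 (-0.34 to 0.07), -0.34 for Fndc5 (-0.63 to -0.06; edgeR adjusted p = 0.164), -0.20 for Acsm3 (-0.90 to 0.49) and -0.01 for Ces1g (-0.78 to 0.76), and for Tlr12 it was 1.52 (-1.29 to 4.33). Without db/db vehicle 1, Fndc5 stood at -0.44 (edgeR adjusted p = 0.0355) among 3089 calls. Whether S184 and S185 had a technical history of their own cannot be told apart from their being the db/m libraries with S numbers.

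Group-tag libraries also allow puerarin-treated db/db mice to be set against db/m vehicle (2 libraries each). This called 284 of 13732 genes (2.07%) and 0 of the 5 selected genes tested, Tlr12 having too few counts. Acsm3 was at 3.31 and 3.53 CPM against 5.43 and 5.82 CPM, without overlap, a log2 fold change of -0.73 (95% interval -1.25 to -0.20; edgeR adjusted p = 0.188). Fndc5, at 60.1 and 54.1 CPM against 91.6 and 71.5 CPM, changed by -0.53 (-0.90 to -0.15; edgeR adjusted p = 0.185). Both puerarin libraries of this comparison are the ones that go against the male label, so sex and treatment cannot be told apart in it. AA465934 (0.23), Wdfy1 (0.10) and Ces1g (-0.43) had intervals that included 0.

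**Figure D3:**
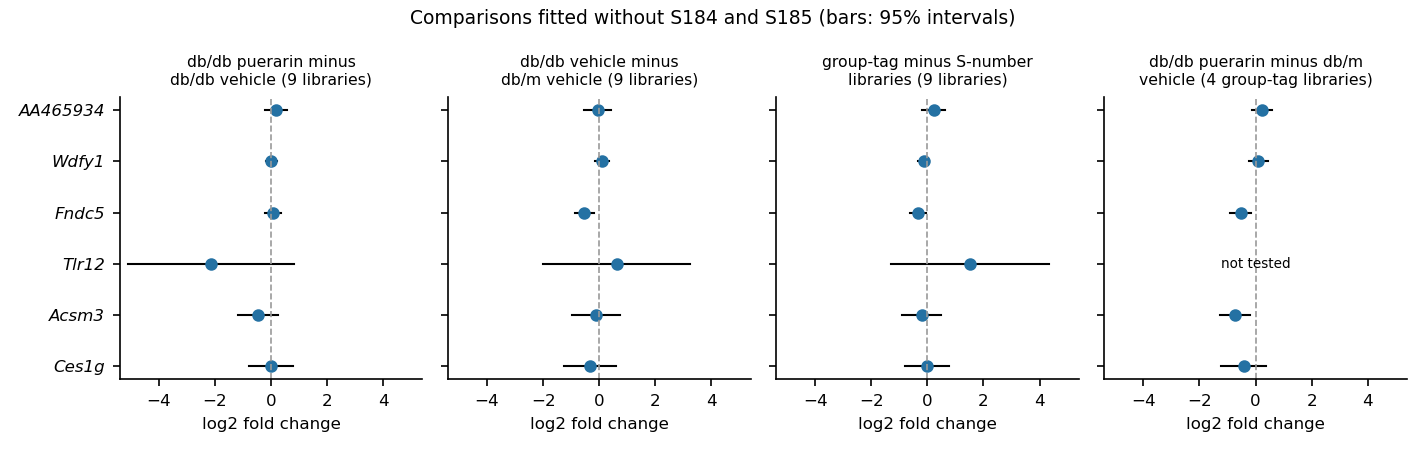
Log2 fold changes (horizontal axes) of the 6 genes in the 4 comparisons fitted without S184 and S185; points are edgeR estimates and bars their 95% intervals. Intervals lie near 0 for Wdfy1 and AA465934, are widest for Tlr12, and leave 0 for Fndc5 in 3 panels and Acsm3 in 1, where the adjusted p-values were above 0.05.

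RNA of the proximal tubule was examined beside the 3 genes that were high, since Slco1a1, Kap and Mep1b, which are tubule genes, were high with them. All 20 markers were measured, and none was at 0 in any library. In S184 and S185, 4 of them were above all other 9 libraries, against 4.06% of all genes. Slco1a1 and Kap, already seen to be high, are among these 4, so the count is partly set in advance. The summed markers were 2.34-fold higher in S184 than in S185, and Acsm3, Ces1g and Tlr12 were higher in S184 as well. S185, at 3360 CPM of tubule markers, lay inside the range of the other 9, below db/db vehicle S153 and 3, but its Acsm3 was above theirs. Per 1000 CPM of tubule markers, Acsm3 had 6.29 CPM in S184 and 7.77 CPM in S185, against 1.41 to 3.18 CPM in the other 9. Ces1g had 0.879 and 1.20 CPM per 1000, against 0.124 to 0.622, and Tlr12 had 0.995 and 1.40, against 0 to 0.396. These ratios use the values on which the genes were chosen and are a description; the part of tubule RNA in them was not tested. Kap, the kidney androgen-regulated protein of the proximal tubule, was at 3031 and 1150 CPM in S184 and S185, against 22.7 to 652.5 CPM. It is 1 of the 20 markers and makes up a large part of their sum in S184 and S185, so it weighs on the ratios. Other markers set S184 less apart from db/db vehicle 3. Slc34a1 was at 1087 CPM in S184 and 1068 CPM there, Slc5a2 at 163.7 and 166.0 CPM, Cubn at 61.9 and 56.9 CPM, and Lrp2 at 233.0 and 182.5 CPM.

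**Figure D4:**
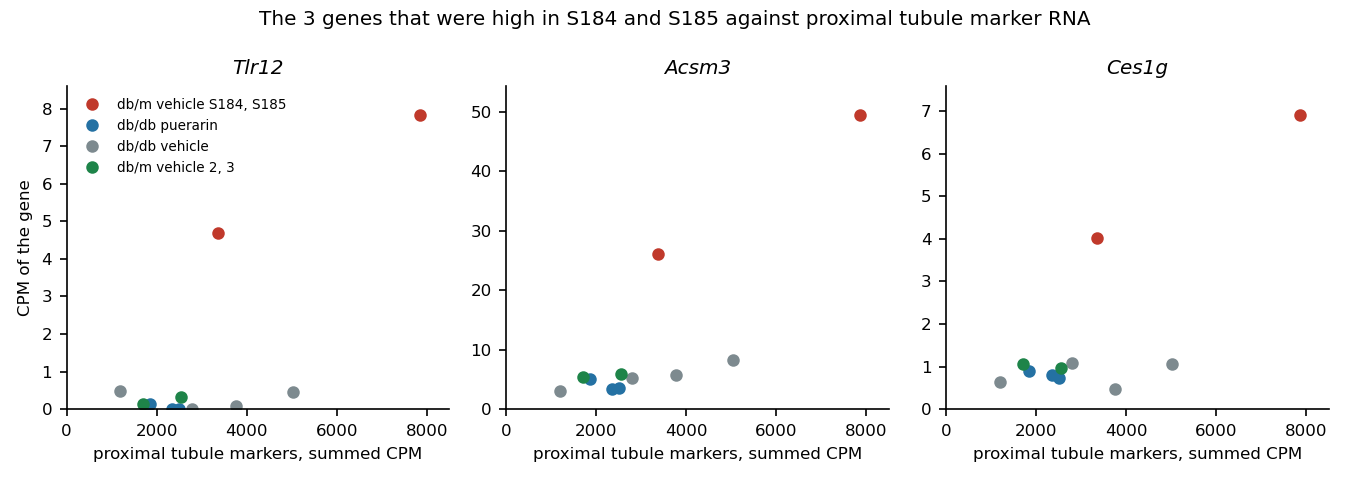
CPM of Tlr12, Acsm3 and Ces1g (vertical axes) against the summed CPM of 20 proximal tubule markers (horizontal axes), 1 point a library, colours by group. S184 has the highest marker sum, a large part of it Kap. S185 lies among the other libraries on the horizontal axis, and both stand above them on the vertical one.

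The other cell lists were compared between the db/m S-number libraries and db/m vehicle 2 and 3 in a fit of all 11 libraries with 1 mean for each combination of group and title form. This comparison called 26 of 13734 genes (0.189%), 3 higher and 23 lower, and DESeq2 called 295. Against the S-number db/db vehicle libraries it called 12 (0.0874%; DESeq2, 164). Median log2 differences from db/m vehicle 2 and 3 were 1.097 for proximal tubule, 0.95 for myeloid, 0.99 for erythroid, 0.57 for lymphocyte, 0.31 for glomerular endothelial, 0.11 for mesangial, 0.06 for podocyte, -1.09 for collecting duct and -1.17 for loop and distal tubule, against 0.03 for all genes. From the S-number db/db vehicle libraries, in the same order, they were 0.42, 0.36, 0.27, 0.39, 0.20, 0.045, 0.16, -0.52 and -0.30. The median of all genes was 0.002 there. Calls were few: Esm1, an endothelial proteoglycan, was higher (2.04, SE 0.17), and Acta2 (-1.73), Tagln (-1.23), both smooth muscle genes of the mesangial list, and the vasopressin receptor Avpr2 (-1.83) were lower. Against the S-number db/db vehicle libraries, the 1 list gene called was Slco1a1 (3.997, SE 0.37). There Esm1 differed by 0.84, Acta2 by 0.30, Tagln by 0.08 and Avpr2 by -0.44. Acta2, Tagln and Avpr2 lay inside the range of the other 9 libraries, and Esm1 lay above it. The part of cell makeup in the values of the 6 genes was not tested.

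Of 102 measured genes within 1 Mb of a selected gene, 0 passed edgeR's test against either db/m vehicle 2 and 3 or the S-number db/db vehicle libraries (background 0.189% and 0.0874%). At an unadjusted p under 0.05 there were 15 and 13 of the 102, against 1507 and 884 of all 13734 genes. DESeq2 called 4 in the first comparison (Rffl, Hpca, Gprc5b and Ces1f), against 295 of all 13734 genes. In the second it called 6 (Hpca, Tmem54, Zbtb8a, Unc45b, Lpcat2 and Serpine2), against 164 of all 13734 genes. These were named after their values were seen. Around Wdfy1, 0 of 7 neighbours lay outside the other 9 libraries. Mrpl44, a mitochondrial ribosomal protein gene next to it, was at 21.4 and 16.7 CPM in S184 and S185 against 16.8 to 23.8 CPM. Serpine2, the gene after Mrpl44, overlapped at 280.6 and 337.9 CPM against 176.8 to 685.5 CPM. It differed from the S-number db/db vehicle libraries by -0.99 (edgeR adjusted p = 0.34, DESeq2 adjusted p = 0.0223). Around AA465934 it was 3 of 28, and around Acsm3 1 of 20, against 6.9% of all genes. Ap2b1, a clathrin adaptor subunit next to AA465934, was at 191.2 and 196.3 CPM against 181.2 to 208.9 CPM. The sister genes Acsm4 and Acsm1 lie on the same side of Acsm3, beyond Thumpd1, and both overlapped the other 9. Acsm4 was at 2.72 and 1.49 CPM against 1.24 to 2.66 CPM, and Acsm1 at 36.0 and 13.0 CPM against 7.26 to 23.0 CPM, so that S184 alone was above the other 9 for both.

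Fndc5 had the neighbour with the clearest drop. Hpca, which encodes the neuronal calcium sensor hippocalcin and whose left end lies 25.4 kb from that of Fndc5, was at 9.496 and 11.8 CPM in S184 and S185 against 18.3 to 31.3 CPM in the other 9. Its log2 difference from db/m vehicle 2 and 3 was -1.11 (SE 0.17; edgeR adjusted p = 0.0603), and it passed in 3 of 16 alternatives, DESeq2 among them (adjusted p = 7.67e-06). Tmem54, the next gene, was at 132.0 and 144.7 CPM against 166.6 to 262.1 CPM, a difference of -0.53 (edgeR adjusted p = 0.382). On the other side of Fndc5, S100pbp, Yars and C77080 overlapped the other libraries. Around Fndc5 4 of 33 neighbours lay outside the other libraries, Hpca and Tmem54 below and Khdrbs1 and Zbtb8a above. The window of Tlr12 shares 23 of its 24 genes with that of Fndc5, and its 3 genes outside are Hpca, Tmem54 and Zbtb8a again. Around Ces1g it was 4 of 13, among them Lpcat2 and the metallothionein genes Mt1 and Mt2, all 3 below. The relatives of Ces1g, Ces1f, Ces1e and Ces1d overlapped: Ces1f was at 60.4 and 29.6 CPM against 3.09 to 36.5 CPM, a difference of 2.16 from db/m vehicle 2 and 3 (SE 0.68; edgeR adjusted p = 0.359, DESeq2 adjusted p = 0.0225). Without db/db vehicle 1 it passed in edgeR as well (2.14; adjusted p = 0.0494).

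Chromosome 4, which carries Fndc5 and Tlr12, had 77 of 888 genes outside the other 9 libraries (8.67%), next to chromosome 12 with 8.77% as the highest share of the chromosomes, and chromosome 7 had the lowest among the numbered ones with 5.50%. Of 29 genes anywhere with a gap over 1.5-fold on the scale of log2(CPM + 0.5), 6 were on chromosome 4, and 5 of these lay between 120 and 130 Mb: Rhbdl2, Grik3, Tlr12, Hpca and Fndc5, of which Fndc5 and Tlr12 were themselves selected on that gap. Rhbdl2, an intramembrane protease, was at 2.54 and 3.32 CPM in S184 and S185 against 0.408 to 1.12 CPM. In that window, 13 of 102 genes were outside (12.7%). The stretch from 30 to 40 Mb had a higher share (4 of 21, 19.0%) and that from 0 to 10 Mb a like one (2 of 16, 12.5%). By this count the share was not the highest of the chromosome. Genes with a gap over 1.5-fold numbered 0 in both of those stretches. From 120 to 130 Mb they were 5 of 102, against 29 of 13734 genes anywhere, and 2 of the 5 were selected on that gap. Rises and drops were mixed in the window from 120 to 130 Mb.

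**Figure D5:**
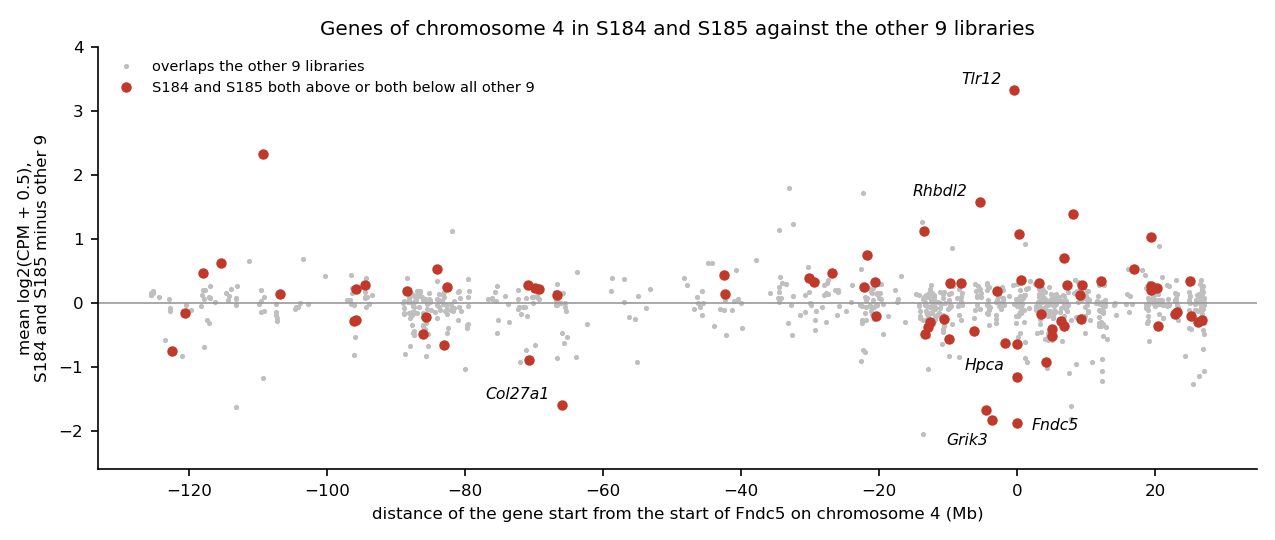
Mean log2(CPM + 0.5) of S184 and S185 minus that of the other 9 libraries (vertical axis) for 888 genes of chromosome 4, by distance from the start of Fndc5 in Mb (horizontal axis); red points are genes for which S184 and S185 were both outside the other 9. Tlr12 and Rhbdl2 stand high and Fndc5, Grik3 and Hpca low, within 6 Mb of one another.

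Genes known for differences between laboratory mouse strains were looked at as a list of 19, of which 14 were measured and 3 lay above all other 9 libraries, against 4.06% of all genes. The list was put together with earlier results of these data known, so it is not independent evidence. Ide, the insulin-degrading enzyme on chromosome 19, was at 49.3 and 47.5 CPM in S184 and S185 against 23.5 to 28.2 CPM, and its neighbour Fgfbp3 was at 7.95 and 7.09 CPM against 2.67 to 4.25 CPM. These genes lie in a segment whose copy number is known to vary among C57BL/6J mice. Ide differed from db/m vehicle 2 and 3 by 0.84 (SE 0.12; edgeR adjusted p = 0.0435), a call kept in 7 of 16 alternatives, with values of 0.78 to 0.87 in all of them. Leaving out any 1 of db/m vehicle S184, S185, 2 or 3, db/db vehicle S152 or S153, or puerarin 2 or 3 ended the call. From the S-number db/db vehicle libraries it differed by 0.78 (edgeR adjusted p = 0.0966). Fgfbp3 differed by 0.997 (SE 0.26; edgeR adjusted p = 0.284). Glo1, glyoxalase, was at 114.6 and 113.3 CPM against 89.6 to 111.9 CPM. The 11 others overlapped, among them the nicotinamide nucleotide transhydrogenase Nnt at 71.2 and 43.1 CPM against 29.4 to 94.4 CPM, and the histocompatibility gene H2-K1 at 614.4 and 998.5 CPM against 392.5 to 708.1 CPM, whose reads may be shared with like genes. Strain background was not tested.

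Genes that work with the selected ones did not pass edgeR's test in either comparison. Of 23 measured genes of Toll-like receptor and TRIF signalling, 0 passed, and the median log2 difference from db/m vehicle 2 and 3 was 0.16 against 0.03 for all genes. Tlr7, a receptor for single-stranded RNA, was at 196.2 and 254.8 CPM against 68.6 to 179.0 CPM in the other 9 (edgeR adjusted p = 0.484), and Ticam1, which encodes TRIF, overlapped at 12.9 and 10.3 CPM against 12.8 to 18.5 CPM. Of 12 genes around FNDC5 and its regulator PGC1, 0 passed (median 0.06). Ppargc1a, which encodes PGC1 alpha, was at 73.3 and 29.9 CPM against 21.4 to 169.5 CPM. Ucp2 of this list was below all other 9 libraries, at 191.9 and 166.1 CPM against 221.4 to 403.9 CPM. It differed from the S-number db/db vehicle libraries by -0.91 (edgeR adjusted p = 0.239, DESeq2 adjusted p = 0.00496). Of 17 acyl-CoA synthetase genes, 0 passed (median -0.03), and Acsm2 was at 2104 and 777.9 CPM against 277.8 to 1350 CPM. Of 7 carboxylesterase genes, 0 passed, but all 7 differences were above 0 (median 0.99). At an unadjusted p under 0.05 there were 3 of the 7, against 1507 of 13734 genes. The acyl-CoA synthetases had 4 of 17 at that level, the FNDC5 list 1 of 12 and the Toll-like receptor list 0 of 23. Against the S-number db/db vehicle libraries 6 of the 7 carboxylesterase differences were above 0 (median 0.87). In S184 and S185, 2 of the 7 were above all other 9 libraries, against 4.06% of all genes. The 7 genes summed to 157.7 to 205.1 CPM in S184 and S185, against 56.4 to 124.0 CPM in the other 9. Ces2c overlapped, at 14.1 CPM in S184 and 3.89 CPM in S185, against 0.938 to 5.52 CPM. The summed proximal tubule markers were also highest in S184, and its part in the list's values was not tested.

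The genes whose levels ran most like those of the 6 were found by correlation of log2(CPM + 0.5) over the 11 libraries, which is a description that rests on the contrast of S184 and S185 with the rest. AA465934 ran with Wdfy1 (r = 0.98), with the protease gene Prss23 (0.94) and with Fndc5 (0.94). Wdfy1 ran also with Grik3 (0.95), and Fndc5 most with Zbtb16 (0.95). Tlr12 ran most with Yipf1 (0.94), a Golgi membrane protein gene on chromosome 4, and then with Ces1g (0.94) and Acsm3 (0.94). Acsm3 ran most with Ide (0.96) and Akr1c14 (0.96), and Ces1g with Akr1c14 (0.96) and Acsm3 (0.96). For 4 of the 6 genes the nearest was a gene that was not selected.

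In the test of whether the difference between S-number and group-tag libraries was unlike in db/m and in db/db vehicle mice, 3 of 13734 genes passed (0.0218%), and they were AA465934, Wdfy1 and Fndc5. Since these were chosen on S184 and S185, nothing is read from this count; 458 genes were at an unadjusted p under 0.05, and DESeq2 called 51.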

How the data were processed

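The deposited table gave whole-number counts of reads for 22320 RefSeq transcripts, which the authors made with BWA, limma and mm10 as named (without versions) in the submitters' processing notes. The authors' deposited log2 values, used in 1 alternative, were made from the same counts. Of 15 count columns, 4 matched no sample and were not used. Blank cells (13) were taken as 0, and 50 transcripts with symbols turned into dates were restored by identifier. RNA integrity had to exceed 7.5, per the labels. The counting tool and strand setting are not given in the sources used here.

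Counts were summed to 13734 genes, of which 4562 have more than 1 transcript, so shared reads can count more than once. CPM were computed with TMM factors of edgeR 4.0.16 in R 4.3.3, and log2 differences use a pseudocount of 0.5 CPM. Tests were edgeR's glmQLFit and glmQLFTest, two-sided, Benjamini-Hochberg over all genes, called under 0.05, on genes with a count of at least 1 in 3 libraries (in the group-tag comparison this left 13732). DESeq2 1.42.0 was an alternative. Scripts were tested on simulated data. P-values cover the spread between these libraries, technical spread included; counts of any 2 libraries of a group differed by more than sampling noise.

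The 6 genes and the 14 gene lists (5 of related genes, 9 of cell types) were chosen with earlier results of these data known. Named besides them were the 3 nearest measured genes on each side within 1 Mb, the 8 widest gaps on each side among genes averaging at least 1 CPM, the 3 best correlated genes, and up to 4 genes a list, from which examples are printed. List genes past a test were named after their values were seen. Promoters came from RefSeq.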

Additional observations from a re-analysis of the deposited data

How the results depend on the processing

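The differences of S184 and S185 from the other 9 libraries kept their sign for all 6 genes under all 18 alternatives each. AA465934 was at -4.54 with the highest transcript, -3.75 and -4.92 with pseudocounts of 1 and 0.1, and -5.16 on the authors' deposited log2 values. Tlr12 was at 3.79, 2.61, 4.80 and 5.79, and Ces1g at 1.77 (pseudocount 1), 2.53 (0.1) and 2.65 (the authors' values). Leaving out 1 library gave 2.32 to 3.22 for Acsm3, 1.76 to 2.47 for Ces1g, -4.35 to -4.18 for AA465934, -1.69 to -1.65 for Wdfy1, -1.93 to -1.83 for Fndc5 and 2.99 to 3.67 for Tlr12.

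Counts of genes past a test moved with the tool and the libraries. DESeq2 called 31 genes for puerarin against vehicle, 210 for db/db against db/m vehicle, 1403 for title form, 546 for the group-tag comparison, 295 for db/m S-number against db/m group-tag libraries and 164 for db/m against db/db vehicle S-number libraries. With the proximal tubule level as a covariate the first 2 counts were 2 and 127. Leaving out 1 library gave 0 to 588, 0 to 1379, 6 to 3089, 70 to 781, 4 to 103 and 2 to 44, in the same order; the highest count of the first 3 came without db/db vehicle 1. Without puerarin 2 and 3, chosen after seeing the data, title form had 0 calls, and the last 2 comparisons 13 and 8. The cause was not tested.

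The group-tag comparison with the replicate block called 557 genes and 0 of the 5 selected genes, and the numbers do not pair these samples (r = 0.0563 over genes between the differences of library 2 from 3). Signs of selected genes that did not pass turned as follows. For puerarin against vehicle, Wdfy1 was -0.014 without the title form term, Fndc5 -0.044 and Ces1g 0.10 with the tubule covariate, and without puerarin 2 and 3 AA465934 was -0.16, Tlr12 1.76 and Ces1g 0.22. For title form, without puerarin 2 and 3, AA465934 was -0.00403, Acsm3 0.033 and Ces1g 0.14. Leaving out 1 library gave, for puerarin against vehicle, -0.022 to 0.038 for Wdfy1, -0.0197 to 0.16 for Fndc5, -0.71 to 0.0053 for Acsm3 and -0.20 to 0.22 for Ces1g. For db/db against db/m vehicle it gave -0.17 to 0.14 for AA465934 and -0.77 to 0.17 for Acsm3, and for title form -0.0041 to 0.39 for AA465934, -0.69 to 0.033 for Acsm3 and -0.29 to 0.26 for Ces1g. Tagln, between db/m and db/db vehicle S-number libraries, ran from -0.072 to 0.25. Depth limits Tlr12 most, whose other 9 libraries held 0 to 19 counts.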
